A study of Mus musculus with 2 samples.

Results

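The actin and tubulin genes examined here were the 10 genes Actb, Actg1, Tuba1a, Tuba1b, Tuba1c, Tuba4a, Tubb2a, Tubb2b, Tubb3 and Tubb5, chosen by name among the 22367 protein-coding genes of the GENCODE M1 annotation of the mouse genome (mm9). In primary neural stem/progenitor cells (NSPCs), 6 of these 10 genes lay under peaks of RNA:DNA hybrids, and the other 4 had no peak within 2 kb. Both cytoplasmic actins, Actb and Actg1, and the beta-tubulins Tubb2a, Tubb2b and Tubb5 were covered over at least 88.7% of their length. Tuba1a was covered over 53.4%, with peaks at its start and at its end and almost none of its coding sequence inside them. The alpha-tubulins Tuba1b, Tuba1c and Tuba4a and the beta-tubulin Tubb3 had no covered base.

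The cells were cultured from the frontal brain of C57BL/6 mice at postnatal day 7. They were exposed for 48 h to 0.5 μM aphidicolin, an inhibitor of DNA polymerases that slows replication. This treatment is described in the methods and not in the sample labels, and no untreated cells were analysed here. R-loops, in which a nascent RNA pairs with its DNA template and leaves the other DNA strand unpaired, were mapped by DRIP-seq, that is by digesting genomic DNA with 5 restriction enzymes, precipitating RNA:DNA hybrids with the S9.6 antibody and sequencing the recovered DNA. The measurement available was 1 list of 22132 peaks with their positions and no signal, score or read count, so that depth is unknown, no replicate error can be given and no test was made. A gene without a peak was not shown to be free of R-loops, and a peak does not tell how many of the cells carried the hybrid.

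Actins polymerise into the filaments that shape the cell cortex, the leading edge and the contractile ring of dividing cells. Alpha- and beta-tubulins pair into the dimers from which microtubules, the mitotic spindle and the tracks of axonal transport are built. Several isotypes of each are encoded by separate genes with very similar coding sequences, and Tuba1a, Tubb2a, Tubb2b and Tubb3 are known for their use in developing neurons. R-loops are known to form over transcribed genes, often near their start and their end and where the non-template strand is rich in G.

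The G-rich stretches of these genes are shown first, since a G-rich non-template strand is a known feature of R-loop regions. For each gene but Tuba1b, which was not analysed here in this respect, the coding strand was searched for the 60 bases outside UTRs in which G outnumbered C the most, among stretches that occur once in mm9. They were taken from the part inside peaks, or from the whole gene where there was no peak. Of the following 3, those of Actb and Tubb2b came from genes under peaks and that of Tubb3 from a gene without a peak, and capitals mark runs of at least 3 G.
Actb, intron, chr5:143667867-143667926, minus strand: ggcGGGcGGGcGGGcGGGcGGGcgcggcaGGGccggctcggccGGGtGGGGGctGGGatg
Tubb2b, intron, chr13:34221250-34221309, minus strand: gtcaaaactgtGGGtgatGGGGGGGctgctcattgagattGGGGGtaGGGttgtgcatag
Tubb3, intron, chr8:125936817-125936876, plus strand: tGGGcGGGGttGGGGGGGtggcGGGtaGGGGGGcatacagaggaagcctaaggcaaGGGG

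The stretch in Actb began 507 bp after the gene start and held 39 G in 9 runs. Under peaks, the stretch of Tuba1a held 7 runs, those of Actg1, Tubb2a and Tubb2b held 4 each, and that of Tubb5 held 3. Among the other 3 genes analysed, all without a peak, the stretch of Tubb3 held 6 runs, and those of Tuba1c and Tuba4a held 3 and 2. The numbers of runs overlapped between genes with and without a peak, and the stretch of Tubb3 held more than those of 4 of the genes under peaks. The searched lengths were unlike, however. Before UTRs were left out, they were 10592 bp in Tubb3 and 8215 bp in Tuba1c, but 1981 bp in Tuba1a and 2853 bp in Actg1. A longer search can find a richer stretch, and stretches were picked by G over C and not by runs. The counts therefore describe single stretches and do not compare genes with and without a peak.

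**Figure D1:**
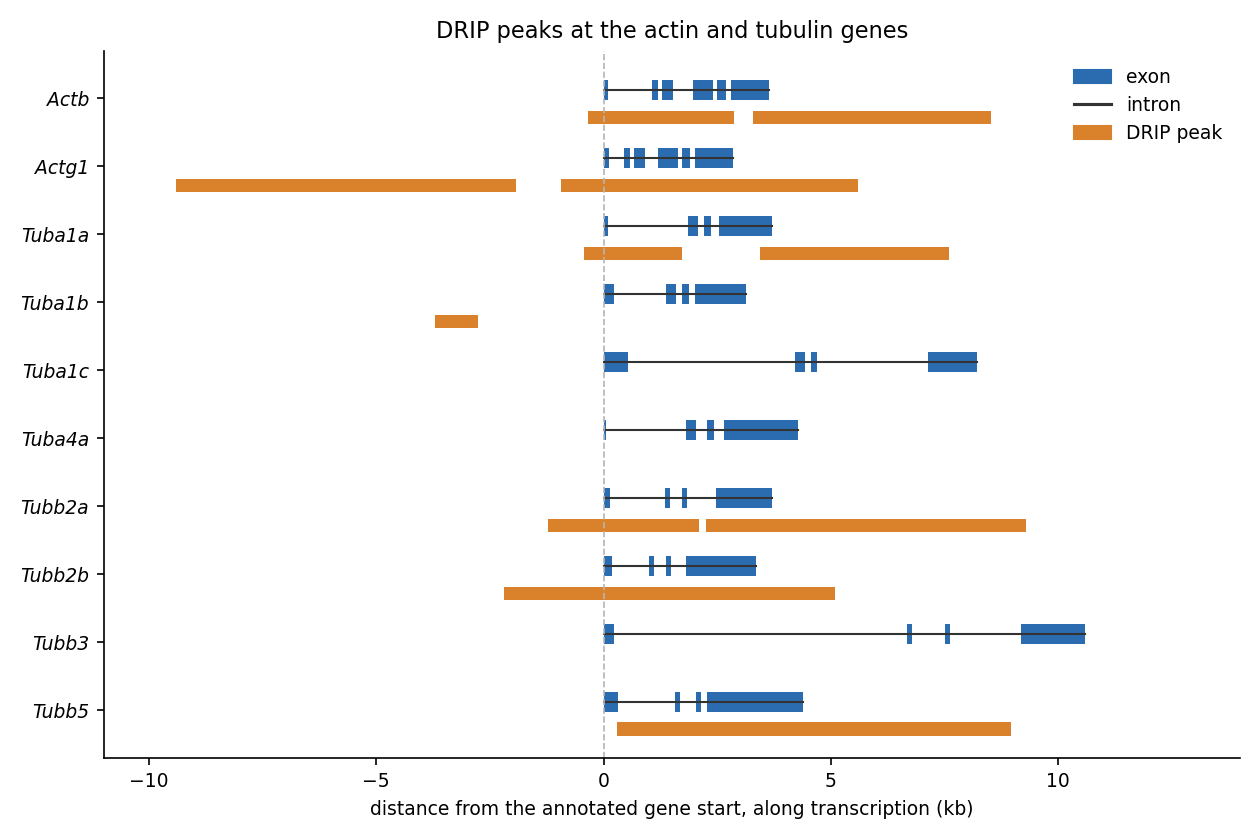
DRIP peaks (orange) and exons (blue boxes, with introns as lines) of the 10 genes, placed by distance from the annotated gene start in kb along the direction of transcription. Only peaks within 2 kb of a gene and the nearest peak of each gene are drawn, and other peaks in the range are left out. Peaks ran across most of Actb, Actg1, Tubb2a, Tubb2b and Tubb5 and past their ends, Tuba1a had a gap of 1730 bp between its 2 peaks, and the nearest peaks of Tuba1c, Tuba4a and Tubb3 lay outside the range drawn.

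Actb, which encodes beta-actin, lies on the minus strand at chr5:143664794-143668433 and spans 3.64 kb in 6 exons (ENSMUSG00000029580). A peak of 3.21 kb, chr5:143665560-143668768, began 335 bp upstream of the gene and covered exons 1 to 5 with all 5 introns. A second peak of 5.24 kb, chr5:143659907-143665147, held the last part of exon 6 and ran 4887 bp past the gene end. Between the peaks, 412 bp of exon 6 were uncovered, of which 80 were coding and 332 were 3′ UTR. Together the peaks covered 88.7% of the gene, 78.5% of its exon bases, all of its intron bases and 92.9% of its coding bases.

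Actg1, which encodes gamma-actin, spans 2.85 kb in 6 exons at chr11:120207004-120209856, minus strand (ENSMUSG00000062825), and was the shortest of the 10 genes. It lay whole inside a peak of 6.52 kb, chr11:120204268-120210790, which began 934 bp upstream and ran 2736 bp past its end. This peak also overlapped the protein-coding gene 0610009L18Rik on the opposite strand and the annotated miRNA gene AL669855.1. Another peak of 7.47 kb, chr11:120211790-120219256, lay 1933 bp upstream of Actg1, 999 bp from the first, and also overlapped 0610009L18Rik. DRIP peaks carry no strand, so that hybrids of the overlapping genes cannot be told apart.

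The peak of Actg1 reached over the gene start and covered all of the 250 bases before it. The 250 bases before Tuba1a, Tubb2a and Tubb2b were covered whole too, and only the promoter of Actg1 is shown. Actin genes are well-known targets of serum response factor, which binds the CArG box, written as CC, then 6 bases that are each A or T, then GG. One such box, in capitals, was found in the sequence.
Actg1, chr11:120209857-120210106, minus strand: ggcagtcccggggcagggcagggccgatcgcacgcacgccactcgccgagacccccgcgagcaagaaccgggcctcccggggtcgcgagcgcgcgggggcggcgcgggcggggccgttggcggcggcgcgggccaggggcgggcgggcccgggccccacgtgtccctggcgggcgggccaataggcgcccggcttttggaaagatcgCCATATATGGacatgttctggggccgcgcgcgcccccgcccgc

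The box began 43 bp before the start of Actg1. The pattern reads the same on both strands, and it occurred in 300 of the 250-base stretches before the 22367 protein-coding genes, that is in 1.34%. The promoter of Actb was not analysed here. The 250 bases had a GC content of 79.2%. A match of letters is a description of the sequence and not of binding.

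Among the alpha-tubulins, Tuba1a had peaks and the other 3 had none. Tuba1a, the alpha-tubulin known for its role in neuronal migration, spans 3.71 kb in 4 exons at chr15:98780272-98783982, minus strand (ENSMUSG00000072235). Its first peak, chr15:98782259-98784403, was the narrowest of the 10 peaks with 2.15 kb, began 421 bp upstream and covered exon 1 and 92.3% of intron 1. Its second peak, chr15:98776377-98780528, of 4.15 kb, held the last 257 bp of exon 4 and ran 3895 bp past the gene end. The 1730 bp between them, chr15:98780529-98782258, contained exons 2 and 3 whole and most of exon 4, in all 1289 coding bases and 441 intron bases. As a result, 78.6% of the intron bases but only 4.73% of the coding bases of Tuba1a lay under a peak.

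Tuba1b, a widely expressed alpha-tubulin, lies at chr15:98761856-98764996, minus strand (ENSMUSG00000023004), and its nearest peak was a stretch of 0.952 kb, 2766 bp upstream, that overlapped no annotated gene. Tuba1c, at chr15:98860322-98868536 on the plus strand (ENSMUSG00000043091), had its nearest peak, of 0.429 kb, 23998 bp downstream. These 3 genes lie within 107 kb of chromosome 15, and only 4 peaks fell in this span and the 5 kb on each side of it. They were the peak upstream of Tuba1b, both peaks of Tuba1a and a peak of 0.897 kb at 4930578M01Rik. Tuba4a, at chr1:75211549-75215828, minus strand (ENSMUSG00000026202), had its nearest peak 11168 bp downstream, a peak of 7.17 kb over Ankzf1 and Glb1l.

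Among the beta-tubulins, 3 of 4 were under peaks. Tubb2a, chr13:34166170-34169877, minus strand (ENSMUSG00000058672), spans 3.71 kb and had a peak of 3.32 kb from 1230 bp upstream into intron 3. A second peak of 7.04 kb took up 168 bp further on, covered the remainder of the gene and ran 5586 bp past its end, the longest such extension of the 6 genes, into Bphl, which encodes a hydrolase. All exon bases of Tubb2a and 92.1% of its intron bases were covered. Tubb2b, chr13:34218877-34222223, minus strand (ENSMUSG00000045136), mutated forms of which are known from malformations of the human cortex, lay whole inside 1 peak of 7.28 kb that began 2182 bp upstream and ended 1749 bp past the gene. Between these neighbours lay 48999 bp, in which the other peaks were 3 narrow ones of 185, 283 and 207 bp, each 1 base from the next, past the end of Tubb2b.

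Tubb5, which encodes a beta-tubulin of dividing cells, spans 4.38 kb in 4 exons at chr17:35970871-35975251, minus strand (ENSMUSG00000001525). Its peak was the widest of the 10 with 8.66 kb, chr17:35966291-35974946, covered 93.0% of the gene and ran 4580 bp past its end into Flot1, which encodes the membrane protein flotillin. It was the only one of the 6 genes whose start was not inside a peak, since the peak ended 305 bp short of it. Of the 310 bp of exon 1, 5 bp were covered. Tubb3, the beta-tubulin used as a marker of neurons, spans 10.6 kb at chr8:125935324-125945915 on the plus strand (ENSMUSG00000062380) and was the longest of the 10 genes. Its nearest peak lay 19712 bp downstream, was 1.16 kb wide and overlapped Gm20388.

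**Figure D2:**
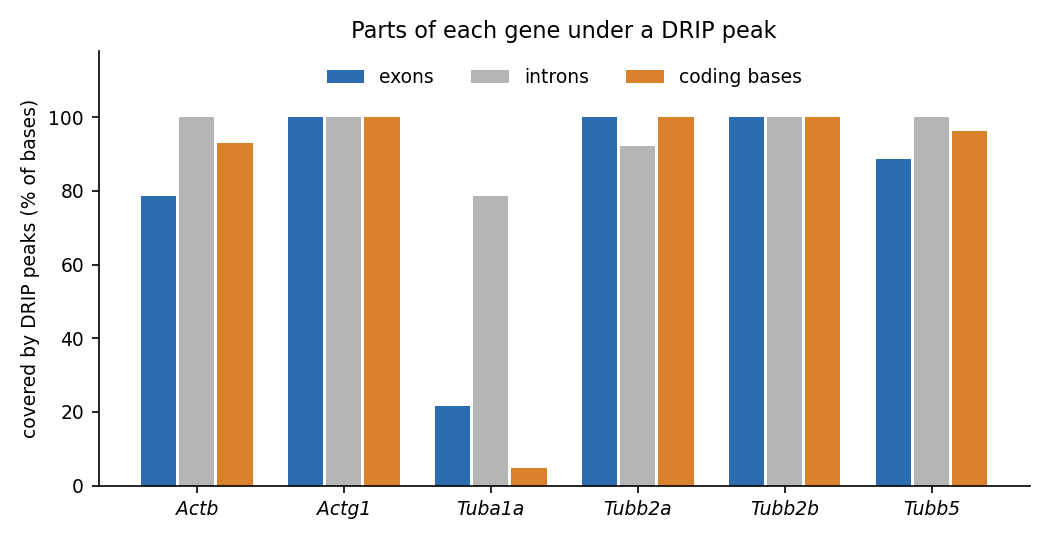
Share of exon bases (blue), intron bases (grey) and coding bases (orange) of the 6 genes with a peak that lay under DRIP peaks, in percent of the bases of each kind. Coding bases were covered at 92.9% or more in all of these genes except Tuba1a, in which 4.73% were covered.

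The count of genes with a peak was read against the whole annotation. A peak overlapped 6 of the 10 genes, compared to 39.6% of all protein-coding genes, and the same 6 had a peak within 2 kb, compared to 43.1%. The 10 genes were 2.85 to 10.6 kb long, and of the 5117 protein-coding genes in this range of length, 32.9% overlapped a peak. A peak held the gene start of 5 of the 10 genes, against 14.9% of protein-coding genes, and the gene end of 6, against 10.9%. Start and end were both inside a peak in Actb, Actg1, Tuba1a, Tubb2a and Tubb2b, against 4.28% of all protein-coding genes and 6.82% of those in the same range of length. Among the 8858 protein-coding genes that overlapped a peak, 37.5% had the start and 27.6% the end inside one. With 10 genes chosen by name and 1 list, these shares are descriptions.

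The median of the covered part was 94.3% over the 6 genes with a peak, and 71.0% over all 10 genes including those at 0. The median was 10.4% over all protein-coding genes with a peak, and 43.1% over those with a peak in the same range of length. Even Tuba1a was covered more than 58.4% of the latter. Actg1 and Tubb2b, covered whole, stood above 88.2% of them. The 10 peaks had a median width of 5.88 kb, against 1.32 kb for the list, and all 10 were wider than that median. The 2 sets are unlike, since the 10 peaks were picked for lying at a gene, which a wide peak does more easily. The width of peaks at other genes was not compared.

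**Figure D3:**
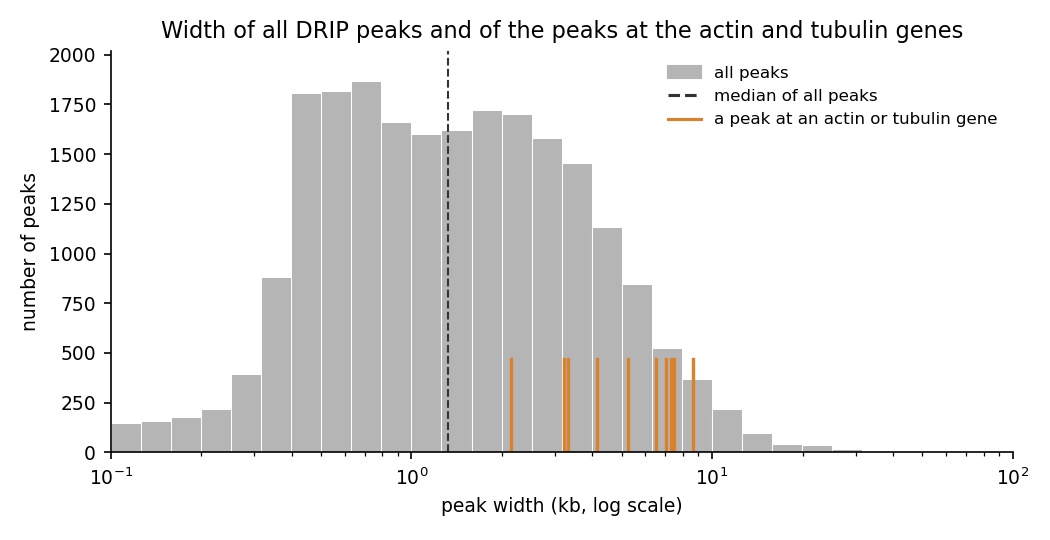
Width of all 22132 DRIP peaks in kb on a log scale (grey, number of peaks per class), with the median of the list (dashed) and the 10 peaks at the actin and tubulin genes (orange lines). The 10 peaks were 2145 to 8656 bp wide and lay to the right of the median of 1322 bp.

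The peaks ran past the gene end in all 6 genes. Past the end, they extended by 1749 bp at Tubb2b, 2736 bp at Actg1, 3895 bp at Tuba1a, 4580 bp at Tubb5, 4887 bp at Actb and 5586 bp at Tubb2a. The median was 4237 bp, against 2151 bp over the 2447 protein-coding genes whose end was inside a peak. The extension at Tubb2b was longer than that of 42.5% of these genes and the one at Tubb2a longer than that of 84.8%. At Tubb2a and Tubb5 the peak ran into Bphl and Flot1, which lie on the opposite strand. Since peaks carry no strand, the extension there cannot be assigned to Tubb2a or Tubb5 alone. Upstream of the start, the peaks that covered it extended by 335 bp at Actb, 421 bp at Tuba1a, 934 bp at Actg1, 1230 bp at Tubb2a and 2182 bp at Tubb2b. In these 5 genes, the extension past the end was the longer one except at Tubb2b.

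Restriction sites are where DRIP fragments can end, and 12 of the 20 edges of these peaks lay within 100 bp of a site of one of the 5 enzymes, compared to 28.7% of all 44264 edges of the list. In Tuba1a, a restriction fragment of 1.10 kb, chr15:98781062-98782163, was wholly uncovered, whereas the fragment of 3.52 kb that holds the gene end was covered over 85.0% and the fragment of 1.29 kb that holds the start over 98.7%. In Tubb5, the fragment of 0.730 kb with the gene start was covered over 6.16% and the next one, of 1.67 kb, over its whole length. The part of the digestion in the edges of these peaks was not tested.

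The genes resemble each other in sequence, and this was measured since a short read from a shared stretch can align to several genes. Within coding sequences, Tuba1a was identical to Tuba1b at 98.3% and to Tuba1c at 97.1% of aligned positions, while Tuba4a was identical to the other alpha-tubulins at 84.8% to 85.2%. Tubb2a and Tubb2b were identical at 96.5% of positions, and every other pair of beta-tubulins at 81.3% to 84.5%. Actb and Actg1 were identical at 88.6%. The following stretches of coding sequence are among the longest found unchanged within 1 exon in all genes named, up to a limit of 300 bases. Both lay inside peaks in both genes of the pair.
Tubb2a (chr13:34166610-34166909, minus strand) and Tubb2b (chr13:34219613-34219912, minus strand), 300 bases: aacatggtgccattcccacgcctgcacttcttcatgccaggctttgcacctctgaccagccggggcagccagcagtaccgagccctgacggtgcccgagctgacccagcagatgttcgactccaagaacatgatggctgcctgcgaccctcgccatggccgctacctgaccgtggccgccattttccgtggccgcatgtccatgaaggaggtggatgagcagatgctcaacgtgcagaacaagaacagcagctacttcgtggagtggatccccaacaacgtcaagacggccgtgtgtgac
Actb (chr5:143665780-143665841, minus strand) and Actg1 (chr11:120207985-120208046, minus strand), 62 bases: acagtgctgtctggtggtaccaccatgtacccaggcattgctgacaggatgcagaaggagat

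To place such stretches on the genes, every run of 50 bases (50-mer) was searched for a further exact copy anywhere in mm9, on either strand. The methods do not give the read length, so the shares below describe the sequence and not how the reads aligned. In the coding sequence, 86.3% of the 50-mers of Tuba1a, 94.4% of Tuba1b and 92.4% of Tuba1c occurred elsewhere too, against 2.60% of Tuba4a. In Tuba1a, 70.8% of the 50-mers outside its peaks were repeated elsewhere and 1.96% of those inside. The other 3 genes with bases on both sides of a peak edge had small differences or the opposite order, with 6.17% inside and 3.31% outside in Actb, 28.1% and 0% in Tubb2a, and 0.894% and 0% in Tubb5. In Actb the order depended on the length searched, since with runs of 36 bases the shares were 13.0% inside and 20.4% outside. The remaining genes had only one side. In Actg1, covered whole, 57.3% of all 50-mers and 98.2% of the coding ones were repeated, and in Tubb2b, also covered whole, 32.2% and 70.7%. In the genes without a peak, the share over the whole gene ran from 0.733% in Tuba4a and 6.68% in Tubb3 to 51.3% in Tuba1b, with Tuba1c between the latter.

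Copies of the coding sequences were also found outside the family, counting places with at least 100 matching 50-mers. Apart from Tuba1b and Tuba1c, the coding sequence of Tuba1a had matches at 9 further places in mm9, among them the pseudogenes Gm6682, Gm14150, Gm3756 and Gm5620. That of Actg1 had matches at 6 further places, among them the pseudogenes Gm8399, Gm12715 and Actg-ps1, and that of Actb at 1, the pseudogene Gm15725. None of these further places overlapped a peak. Neither did the 8 each of Tuba1b and Tuba1c, the 2 each of Tubb2a and Tubb2b or the 1 of Tubb3. These are not all separate places, since those of Tuba1b and Tuba1c were among the 9 of Tuba1a, and Tubb2a and Tubb2b shared the same 2. How often comparable stretches of mm9 overlap a peak was not determined. Tuba4a and Tubb5 had no place with at least 100 matching 50-mers. The methods name uniquely mapped reads for the signal tracks but do not say which reads entered the peak calling, and the part of this choice in the gap of Tuba1a and in the lack of peaks at Tuba1b and Tuba1c was not tested.

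**Figure D4:**
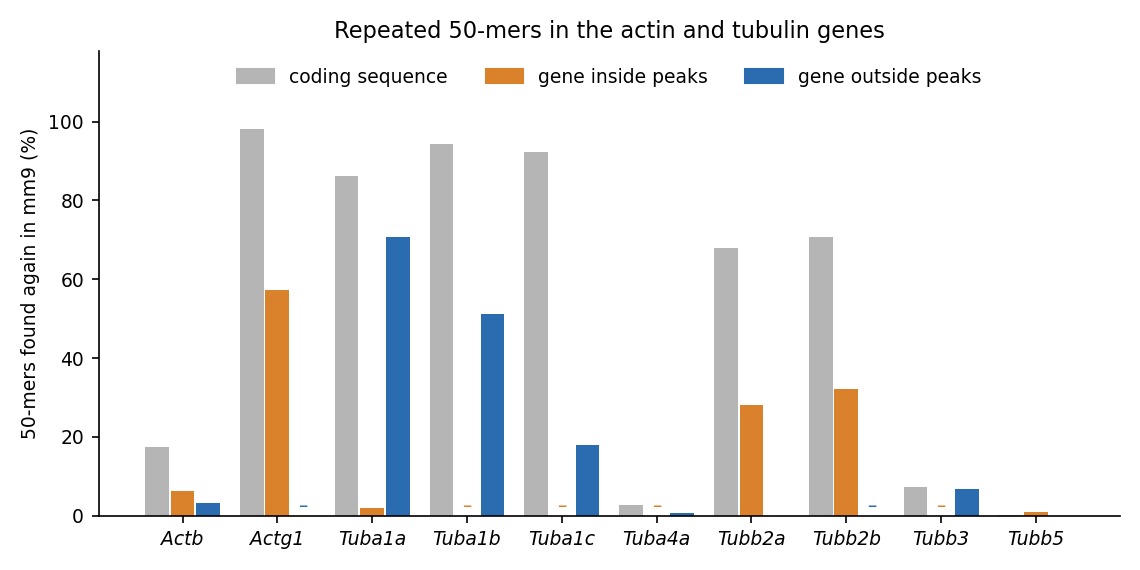
Share of 50-mers that occur again in mm9, in percent, for the coding sequence (grey), the part of the gene inside peaks (orange) and the part outside peaks (blue) of each gene, with a dash where a gene has no such part. Tuba1a had 70.8% outside and 1.96% inside its peaks, whereas Actg1 had 57.3% inside its peak.

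Base composition around the starts overlapped between genes with and without a peak. GC skew, the difference of G and C over their sum on the coding strand, was taken over the first 1 kb of each gene, and its median over protein-coding genes was 0.0390. It was 0.0863 in Actb, 0.0810 in Tubb2a and 0.0707 in Tuba1a, all above that median, and 0.0364 in Tubb5, 0.0122 in Actg1 and 0.00182 in Tubb2b, all below it. Among the genes without a peak, it was 0.0433 in Tuba1b, -0.0133 in Tubb3, -0.0201 in Tuba4a and -0.102 in Tuba1c. The skew was above 0 in all 6 genes with a peak and in 1 of the other 4. Most protein-coding genes also had a skew above 0, since only 35.4% of them lay below the 0.00182 of Tubb2b. Whether the sign of the skew differs between genes with and without a peak was not tested. The GC content within 2 kb on each side of the start had medians of 51.9% in the genes with a peak and 52.0% in those without. It was highest in Actg1, with 62.6%, above 99.7% of protein-coding genes, and lowest in Tuba1a, with 45.5%, above 33.1% of them, and both had peaks.

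The surroundings also held peaks where the gene did not. In a window of the gene and 50 kb on each side, peaks covered 27.6% of the bases at Actb, 22.2% at Tubb5 and 21.7% at Tubb2a. These values include the gene itself and its own peaks, so they are not values of the surroundings alone. In the windows of the genes without a peak, peaks covered 18.4% at Tuba4a, 15.4% at Tuba1b, 6.96% at Tubb3 and 5.06% at Tuba1c. The value at Tuba4a was higher than those at Actg1, Tuba1a and Tubb2b, which ran from 9.85% to 13.7%.

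Of the other actin and tubulin genes, 5 of 16, or 31.2%, overlapped a peak, beside 39.6% of all protein-coding genes. The 4 muscle actins Acta1, Acta2, Actc1 and Actg2, which belong to skeletal, smooth and cardiac muscle, had no peak within 2 kb. Tubb2c (later named Tubb4b), a widely expressed beta-tubulin of 2.54 kb, lay whole inside 1 peak, and Tubb6 was covered over 61.8%. Of the genes for gamma-tubulin, which nucleates microtubules at the centrosome, Tubg2 was covered over 50.7% and Tubg1 over 10.5%. Tubd1, which encodes delta-tubulin of the centriole, was covered over 3.73%. The other alpha-tubulins Tuba3a, Tuba3b, Tuba8 and Tubal3, the platelet tubulin Tubb1, the neuronal Tubb4 (later Tubb4a) and the epsilon-tubulin Tube1 had none.

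The proteins that handle actin and tubulin were examined in the same way. Actin-binding proteins overlapped peaks in 20 of 23 genes, or 87.0%, with a median covered part of 19.0%, beside 39.6% and a median of 0 over all protein-coding genes. Pfn1 and Tmsb10, whose products bind actin monomers, and Cfl1, whose product severs filaments, lay whole inside peaks, and Arpc1b, a subunit of the Arp2/3 complex, was covered over 74.9%. Tubulin cofactors and subunits of the chaperonin that folds actin and tubulin overlapped peaks in 10 of 13 genes, or 76.9%, beside the same 39.6%, with a median of 17.4%. Among these, the cofactor gene Tbcc was covered whole, Cct5 over 82.7%, Cct2 over 63.0% and Cct8 over 25.1%.

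Microtubule-binding proteins overlapped peaks in 16 of 21 genes, or 76.2%, beside 39.6% of all protein-coding genes, with a median of 4.00%. Their median length was 77.5 kb, against 15.4 kb for all protein-coding genes. Mtap1a (later Map1a) was covered over 74.3%, followed by Mapt, which encodes tau, with 16.0%, the plus-end protein gene Mapre1 with 13.0% and the kinesin gene Kif5b with 11.3%. Actin-related proteins overlapped peaks in 7 of 11 genes, or 63.6%, again beside 39.6%, with a median of 3.07%, led by the dynactin subunit gene Actr1b with 40.3%, followed by Actr8, Actr1a and Actl6a with 12.2%, 7.84% and 7.07%. The median length was 24.9 kb for the actin-binding list, 18.9 kb for the actin-related list and 13.3 kb for the tubulin cofactors and chaperonin subunits. It was 7.74 kb for the other actins and tubulins and 3.71 kb for the 10 genes. A longer gene can meet a peak more easily, and the part of length in the shares of all these lists was not tested.

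**Figure D5:**
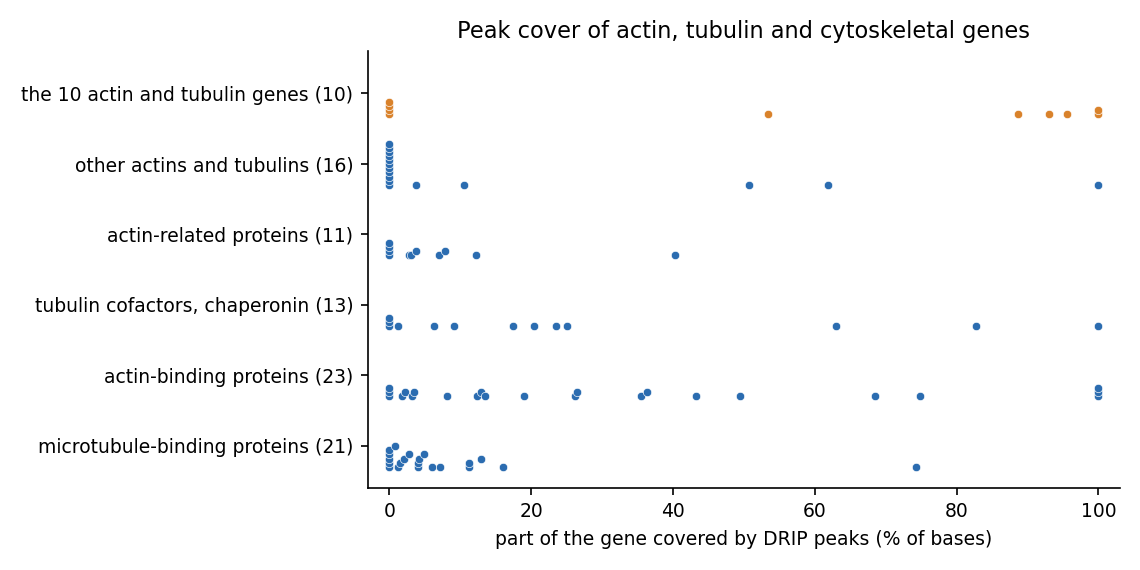
Part of each gene covered by DRIP peaks in percent of its bases, with 1 point per gene, for the 10 actin and tubulin genes (orange) and for 5 lists of related genes (blue, number of genes in brackets). The 10 genes fell into 4 at 0 and 6 at 53.4% or more, while most genes of the other lists lay below that.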

How the data were processed

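DRIP-seq of primary NSPCs was represented by 1 peak list, and the input library was not used here. The authors trimmed reads with Trim Galore 0.6.6 (per the labels and methods), aligned them to mm9 and discarded duplicates, and a Hidden Markov Model served for peak calling. Each library pooled several DRIP reactions of 1 biological replicate, and how the replicates were combined is not given in the sources used here. The deposited values are peak positions in base pairs, with no count or score, so that depth and replicate error are unknown and no test was run.

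The 10 genes were found by symbol in GENCODE M1, all 10 matched, and peaks were compared with gene limits on mm9 from an overlap of 1 bp, or within 2 kb. Covered parts refer to the whole gene, and exons, introns and coding bases to the transcript numbered first. Symbols missing from GENCODE M1 were sought through older names that RefSeq lists (names only), and 84 genes were found for 86 listed symbols, 2 of which are second names. Sequences were read from mm9. Some of them are not reported here. Calculations used Python 3.11.15, numpy 2.4.6, pysam 0.24.0, numba 0.67.0, Biopython 1.88 and matplotlib 3.10.9. The overlap steps were tested on simulated data. The genes, the lists and the measures were chosen with earlier results of these data known. Named are all 10 genes, the genes that share or hold their peaks, other actins and tubulins with a peak, and up to 4 of each other list with the largest covered part. Genes named without a peak, pseudogene copies and the gene between Tuba1a and Tuba1c were chosen after their values were seen. Alternative settings left out peaks under 1 kb, joined peaks with less than 1 kb between them, allowed a distance of 5 kb, used the limits of the transcript numbered first, or placed each peak by its midpoint.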

Additional observations from a re-analysis of the deposited data

How the results depend on the processing

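Merging peaks closer than 1 kb closed the gaps inside Actb and Tubb2a, joined the peaks at Actg1, and left 7 peaks in place of 10. The median covered part of the 10 genes rose from 71.0% to 73.2%, since Actb was then covered whole. Within 5 kb, 7 genes and 14 peaks were counted, with Tuba1b added. With the peak midpoint inside the gene, 5 genes were counted. Neither keeping only peaks of at least 1 kb nor using the limits of the transcript numbered first could change a value, since the narrowest peak at these genes was 2145 bp wide and these transcripts span the whole genes. With runs of 36 bases in place of 50, a setting added once the data had been seen, the repeated share inside minus outside peaks turned from 2.86 to -7.44 percentage points in Actb, while the further places matching Tuba1a rose from 9 to 10, those matching Tuba1b and Tuba1c from 8 to 10 each and those matching Actg1 from 6 to 8. No paired analysis was possible because 1 peak list was available and no groups were compared. Without counts or signal, no depth can be attached to the presence or lack of a peak.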
